A study of Drosophila melanogaster with 10 samples.

Results

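The 3 arrays of hours 10, 11 and 12 were set against the 3 arrays of hours 1, 2 and 3 of a course in which adult flies were kept without yeast, so 6 of 10 arrays were used. The arrays were chosen by the hour in their titles alone. Every array held total RNA of whole Drosophila melanogaster on an Affymetrix array. In both groups the animals had been taken off yeast as larvae of the last instar, early in that stage, and were never given it back, and the course began when the adults were 4 days old. Last-hour and first-hour flies thus differed by time on the same diet and, with it, by the time of day. The labels give no strain, sex, light schedule, clock time or number of flies per array, and they state that too little RNA was obtained for arrays at hours 4 and 8. Flies given yeast again also belonged to the study and were not analysed here. Each hour had 1 array, so the spread within an end holds biological and technical scatter together with any change over its 3 hours. The arrays of hours 5, 6, 7 and 9 took no part in the comparison and are given where they show the course between the ends.

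Several processes are known to follow the hour or the diet in flies. In the circadian clock, CLOCK and CYCLE bind E-boxes and drive per, tim, vri, Pdp1 and cwo, whose products feed back on the same loop. RNAs of the clock and of its outputs therefore follow the time of day, many of them in the head and eye. Yeast is the main source of dietary protein, and without it egg production is low. Yolk proteins are made in the female fat body and the ovarian follicle cells and are taken up by the growing oocyte.

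No gene passed the test between the ends, and the genes that stood out by size or separation were as follows. The genes for yolk proteins, Yp1, Yp2 and Yp3, the spermathecal protease gene Send1, the eye genes Pdh and t and the neighbouring genes CG17108 and CG7300 were lower in all 3 last-hour arrays than in all 3 first-hour arrays. The channel gene trpl, the clock repressor gene vri, the deubiquitinase gene Usp8 and the arrestin gene Arr1 were higher in all 3 last-hour arrays. By limma, 0 of 8380 tested probe sets had an adjusted p under 0.05 in either direction, a share of 0% each way. The smallest adjusted p was 0.0976, for Send1. An unadjusted p under 0.05 was found for 264 probe sets, 3.15% of those tested, where chance alone would give 419, and 78 of them (0.931%) were higher and 186 (2.22%) lower in the last hours. An exact permutation test of 3 arrays against 3 cannot go below p = 0.1 for a single gene.

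The ends were also described without a model of the spread. A probe set was counted as separated where all 3 values of the last hours lay above, or all 3 below, those of the first hours. In the last hours 183 tested probe sets were separated upward, 2.18%, and 582 downward, 6.95%, together 765 or 9.13%. With arrays interchangeable between the ends, chance alone would separate a share of 0.1, so the total was no excess over chance. Over all 13966 probe sets that are no controls, dim ones included, the shares were 2.33% upward and 5.96% downward. Differences between the ends were small for most transcripts. The median difference was -0.04 on the log2 scale, with quartiles of -0.12 and 0.03, and 36.2% of the differences were above 0. The largest were -1.64 for Yp1 and 0.97 for trpl. Of 8380 tested probe sets 16 were at least 2-fold lower in the last hours, 9 of them separated, and 0 at least 2-fold higher. Some of the 16 lay near the intensity floor of 57.2 units in the last hours and were high on only 1 first-hour array. A probe set with no gene name had 58.4, 55.7 and 53.4 units at hours 10 to 12. At hours 1 to 3 it had 59.6, 611.4 and 70.1. Another had 64.5, 57.1 and 57.9 units, against 65.6, 586.0 and 68.0. Both were counted as separated, by narrow gaps.

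**Figure D1:**
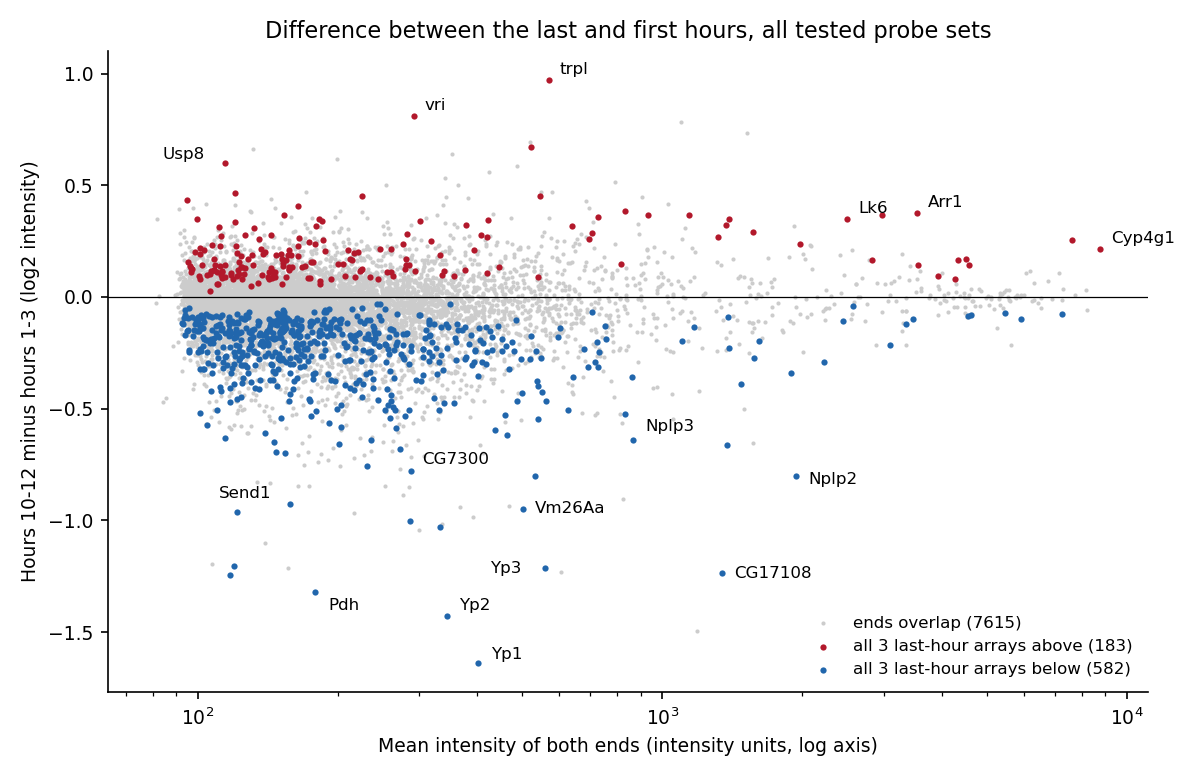
Log2 difference of the last hours minus the first hours (y axis) for 8380 tested probe sets. The x axis (log scale) is the geometric mean of the last-hour and first-hour mean intensities. Red points (183) are probe sets with all 3 last-hour arrays above the first-hour arrays, blue points (582) those with all 3 below, and grey points (7615) those whose ends overlap. The lower side reaches -1.64 at Yp1 and the upper side 0.97 at trpl.

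The excess of lower over higher separated probe sets depended on how the arrays were scaled. Array medians were 111.1, 112.0 and 112.8 intensity units at hours 10, 11 and 12, against 113.9, 113.0 and 120.0 at hours 1, 2 and 3. All 3 last-hour medians thus lay below the first-hour medians (exact permutation test, two-sided, p = 0.1, adjusted over 5 array measures 0.5). As deposited, 76.1% of the separated probe sets were lower. Centring each array on its median gave 350 higher and 314 lower, 47.3% lower, and quantile normalization gave 458 and 279, 37.9% lower. The array of hour 3 also stood apart from the others. It had 249 probe sets at least 2-fold above the mean of the other first-hour arrays, against at most 5 for any other array within its end. The 3' to 5' ratios of the actin, GAPDH, eIF-4a and 18S controls, a measure of RNA quality, had exact permutation p-values of 0.2 or more between the ends (two-sided, adjusted 0.5 or more). The actin ratio was 2.08 ± 0.25 in the last hours and 2.19 ± 0.32 in the first hours (SD, n = 3 each).

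**Figure D2:**
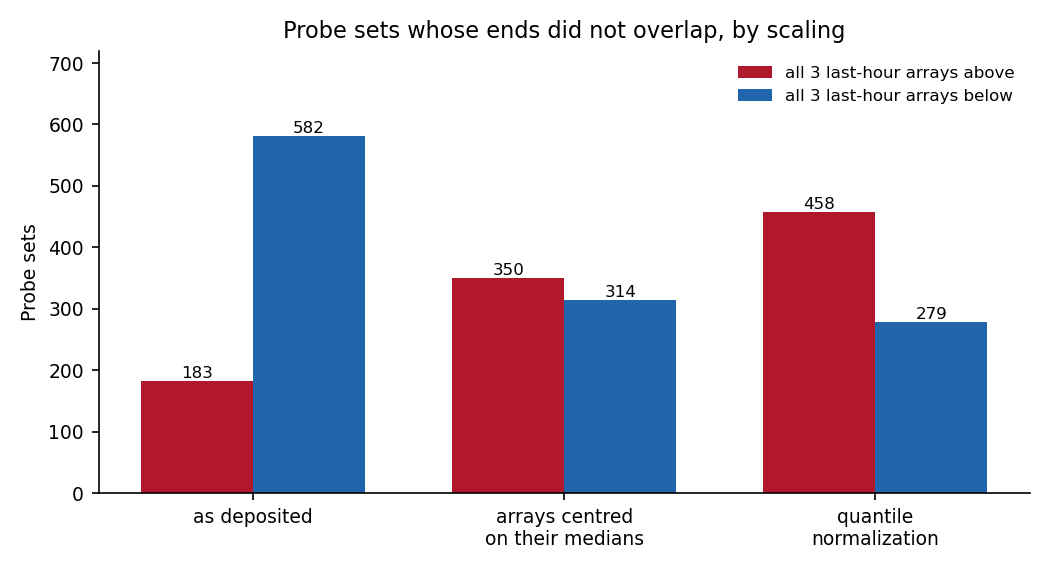
Number of tested probe sets (y axis, counts from 0) whose ends did not overlap, with all 3 last-hour arrays above (red) or below (blue) the first-hour arrays, under 3 scalings of the same values (x axis). The excess of lower probe sets as deposited, 183 above and 582 below, was 350 and 314 after median centring and turned to 458 and 279 after quantile normalization.

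Each difference given from here on is that of the last hours minus the first hours on the log2 scale with its standard error, from limma on 3 arrays an end. An adjusted p is printed where it lies under 0.893, which is the value, or the lower bound, for every other gene named. None of these differences passed the test. Counts of separated list members are read against all 6822 tested genes, each on its brightest probe set, of which 2.05% were separated upward and 7.3% downward as deposited, with 64.5% of the differences below 0. With centring 282 of these genes were separated upward and 267 downward, and with quantile normalization 374 and 238 of 6820. Counts of list members after a rescaling are read against those. A list's share near that of all tested genes is no result about its members. In whole flies, fewer cells of a type and less RNA per cell cannot be told apart.

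Yp1 had the largest difference of all tested probe sets, and the other yolk protein genes were separated in the same direction. Yp1 had 165.4, 325.6 and 161.7 intensity units at hours 10, 11 and 12, against 1332, 387.9 and 509.6 at hours 1, 2 and 3. The ends did not overlap, and hour 1 was by far the highest array. The mean was 217.6 ± 93.6 units in the last hours and 743.1 ± 513.5 in the first hours (SD, n = 3 each), and the difference was -1.64 ± 0.48. Yp2, the neighbour of Yp1 on the X chromosome with 0 protein-coding genes between them, had 179.4, 234.3 and 166.0 units, against 1135, 323.7 and 370.4. It too was highest at hour 1, and its difference was -1.43 ± 0.45. Yp3 had 270.6, 511.2 and 327.9 units in the last hours, against 1072, 679.5 and 778.3 in the first hours, a difference of -1.21 ± 0.27. All 3 yolk genes were separated under each scaling, and all 3 were at their last-hour maximum at hour 11. The yolk median of -1.43 over 3 genes compares with -0.04 over all 6822 tested genes, and it was -1.03 without the array of hour 1. Between the ends the course was uneven, since Yp1 stood at 241.1 units at hour 5, 734.7 at hour 6 and 180.1 at hour 7.

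Send1 encodes a serine protease of the spermatheca, the organ in which the female stores sperm. It had 105.4, 125.8 and 113.1 units at hours 10, 11 and 12, against 226.5, 214.0 and 212.8 at hours 1, 2 and 3. Both ends were tight and lay far apart. Its difference was -0.93 ± 0.09 (limma, adjusted p = 0.0976), and the mean was 114.8 ± 10.3 units in the last hours and 217.8 ± 7.6 in the first hours (SD, n = 3 each). The 4 middle arrays, with 110.3 to 125.4 units, lay within the range of the last hours, so the step lay between hours 3 and 5. Send1 passed when the middle arrays entered the fit as a group of their own (limma, adjusted p = 0.00251) and when hour 9 was counted with the last hours (limma, adjusted p = 0.0239). Send2, another protease gene of the same organ, was under the intensity floor.

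The eggshell and germline lists held 1 separated gene each. Vm26Aa, which encodes a protein of the vitelline membrane around the egg, had 369.1, 339.5 and 333.8 units in the last hours, against 1002, 384.1 and 782.0 in the first hours. The array of hour 2 was close to the last hours and those of hours 1 and 3 were far above them, and the difference was -0.95 ± 0.32. The related gene Vm34Ca overlapped, with -0.42 ± 0.20. The other 6 of 8 tested eggshell genes, 5 chorion genes and psd, had differences between -0.02 and 0.04, so the eggshell median was -0.02. In the germline list exu, whose product places bicoid RNA in the oocyte, had 110.4, 113.9 and 111.5 units, against 183.8, 125.5 and 215.1, a difference of -0.61 ± 0.18. Neither CycB3, at -0.17 ± 0.10, nor png, at -0.20 ± 0.12, was separated, and the germline median over 10 genes was -0.04, close to that of all tested genes. Summed levels of 8 ovary and eggshell markers were 1720 to 2306 units in the last hours and 2557 to 5406 in the first hours. In this sum Yp1, Yp2, Yp3 and Vm26Aa are counted again, and they were the 4 of the 8 separated downward. The 11 testis markers summed to 1882 to 1908 units in the last hours and 1894 to 2075 in the first hours. Of the 11, 1 that was too dim to test was separated downward and 0 upward. Among them dj and can were under the intensity floor, and 0 of 8 sperm tail and spermatid genes were separated. No accessory gland marker was bright enough to test. The part that the share of females or of ovary tissue in each sample had in these values was not tested.

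**Figure D3:**
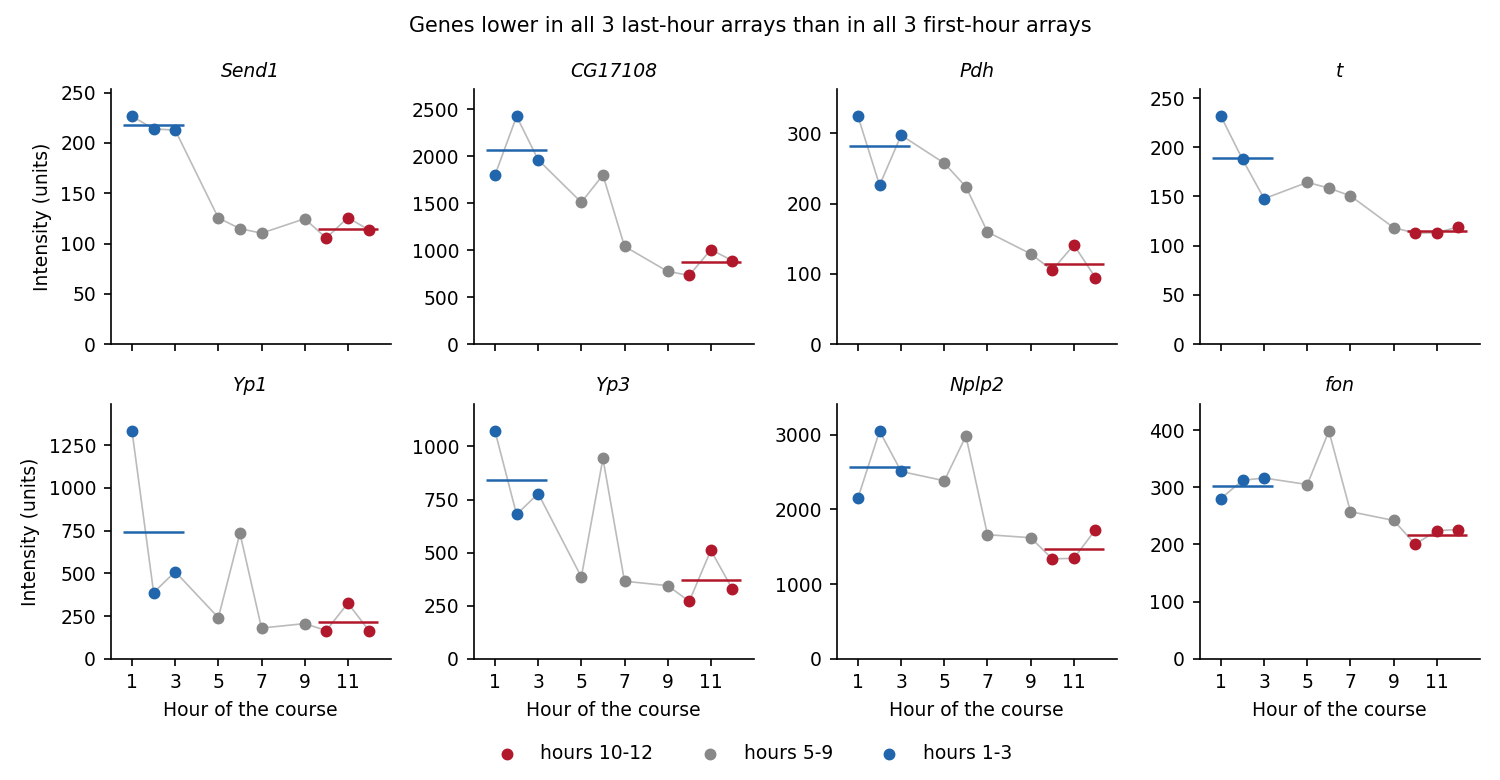
Intensity (y axes, units, from 0) by hour of the course (x axes) for Send1, CG17108, Pdh, t, Yp1, Yp3, Nplp2 and fon, with 1 point per array, red for hours 10 to 12, grey for hours 5 to 9 and blue for hours 1 to 3, and bars at the mean of each end. Send1 is at its later level from hour 5 on, Pdh and t step down over the middle hours, and Yp1, Yp3, Nplp2 and fon have a high value at hour 6.

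Genes that act in the eye lay on both sides. Pdh encodes a retinol dehydrogenase of the retinal pigment cells that works in the recycling of the visual chromophore. It had 105.1, 141.2 and 94.6 units at hours 10, 11 and 12, against 324.3, 226.1 and 297.4 at hours 1, 2 and 3. The highest last-hour array was well below the lowest first-hour array. Its difference was -1.32 ± 0.19 (limma, adjusted p = 0.383), and its middle arrays stepped through the gap with 257.5, 224.0, 159.6 and 128.5 units. The gene t (tan) encodes the enzyme that splits carcinine into histamine in the photoreceptors. It had 112.7, 113.1 and 119.1 units in the last hours, against 231.4, 187.6 and 147.7 in the first hours. The last hours were nearly level, while the first hours spread over a wide range, and the difference was -0.69 ± 0.15. Further members of the retinoid and histamine list were close to 0, with ort, the histamine receptor of the photoreceptor's target cells, at -0.14 ± 0.12. Of the 5 tested members 0 were above 0 as deposited, and the list median was -0.14. With centring 1 was above 0 and the median was -0.09, and with quantile normalization 2 were and it was -0.08. Under each scaling 2 members were separated downward.

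Among 16 tested phototransduction genes 3 were separated upward, 18.8% against 2.05% of all tested genes, and 1 downward, 6.25% against 7.3%. The light-sensitive channel gene trpl had 638.5, 924.6 and 842.9 units at hours 10, 11 and 12, against 468.6, 373.1 and 377.5 at hours 1, 2 and 3. No first-hour array reached the lowest last-hour array. The mean was 802 ± 147.3 units in the last hours and 406.4 ± 53.9 in the first hours (SD, n = 3 each), a difference of 0.97 ± 0.17 (limma, adjusted p = 0.684). The arrestin gene Arr1, whose product ends the response of rhodopsin, had 3956, 3996 and 4127 units, against 3535, 2914 and 2899, a difference of 0.38 ± 0.09. PIP82, a phosphoprotein gene of photoreceptors, had 161.7, 171.0 and 190.9 units, against 142.0, 142.3 and 121.8, a difference of 0.37 ± 0.10. In both genes the last hours lay above the first hours by a narrow gap. The scaffold gene inaD, whose product holds the channel TRP and its partners together, lay the other way with 218.2, 227.9 and 209.0 units, against 274.0, 262.9 and 252.7, a difference of -0.27 ± 0.08. After quantile normalization the list had 3 separated upward and 0 downward. The channel gene trp, with -0.02, the second arrestin gene Arr2, with 0.06, and the kinase gene inaC, with 0.05, were close to 0. The list median was 0.06, with 12 of 16 differences above 0. Summed over the 3 photoreceptor markers measured, levels overlapped, with 4714 to 5031 units in the last hours and 4404 to 5263 in the first hours.

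Of the clock genes driven through E-boxes, vri was the 1 of 5 that was separated. The repressor gene vri had 318.9, 417.7 and 425.8 units at hours 10, 11 and 12, against 243.4, 208.0 and 208.7 at hours 1, 2 and 3. Its last hours lay above both the first hours and hours 5 to 7, while hour 9, with 335.5 units, lay within their range. The mean was 387.5 ± 59.5 units in the last hours and 220 ± 20.2 in the first hours (SD, n = 3 each), a difference of 0.81 ± 0.14 (limma, adjusted p = 0.684). The gene tim, partner of per in the negative limb of the loop, had 472.4, 676.9 and 785.8 units, against 636.2, 348.1 and 267.6, so hour 1 lay within the range of the last hours and the ends overlapped. Its difference was 0.69 ± 0.33. Pdp1, an activator of Clk, showed the same high hour 1, with 233.7, 371.7 and 360.2 units, against 339.2, 234.9 and 201.2, and a difference of 0.32 ± 0.25. The brighter probe set of the repressor gene cwo gave 0.17 ± 0.18 and the dimmer one 0.11 ± 0.09. The period gene per gave -0.02 ± 0.11 as deposited, and this sign turned with either scaling. The list median was 0.32, with 4 of 5 above 0, and it ran from 0.16 without hour 3 to 0.54 without hour 10. The other tim probe sets and that of Clk were too dim to test. Clk, which peaks opposite to per and tim, had 51.2, 47.5 and 47.2 units, against 78.8, 76.3 and 53.2. The blue-light receptor gene cry overlapped, with 0.10 ± 0.10.

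Among known clock outputs, Usp8 had 132.4, 146.1 and 144.2 units at hours 10, 11 and 12, against 95.97, 91.5 and 91.1 at hours 1, 2 and 3. Its first hours were nearly level and its last hours lay clearly above them. The mean was 140.9 ± 7.4 units in the last hours and 92.9 ± 2.7 in the first hours (SD, n = 3 each), a difference of 0.60 ± 0.07 (limma, adjusted p = 0.249). Its middle arrays stood at 93.7, 101.3, 107.4 and 117.7 units at hours 5, 6, 7 and 9. Jhbp13, of the juvenile hormone binding protein family, had 192.4, 245.5 and 198.5 units in the last hours, against 268.0, 297.0 and 484.6 in the first hours, a difference of -0.68 ± 0.23. Its highest value came from the array of hour 3. Slob, which encodes a protein that binds a potassium channel, overlapped on its brighter probe set, at 0.21 ± 0.11, and was separated upward on another, at 0.19 ± 0.08. The neuropeptide gene Pdf, released by clock neurons, gave -0.04.

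**Figure D4:**
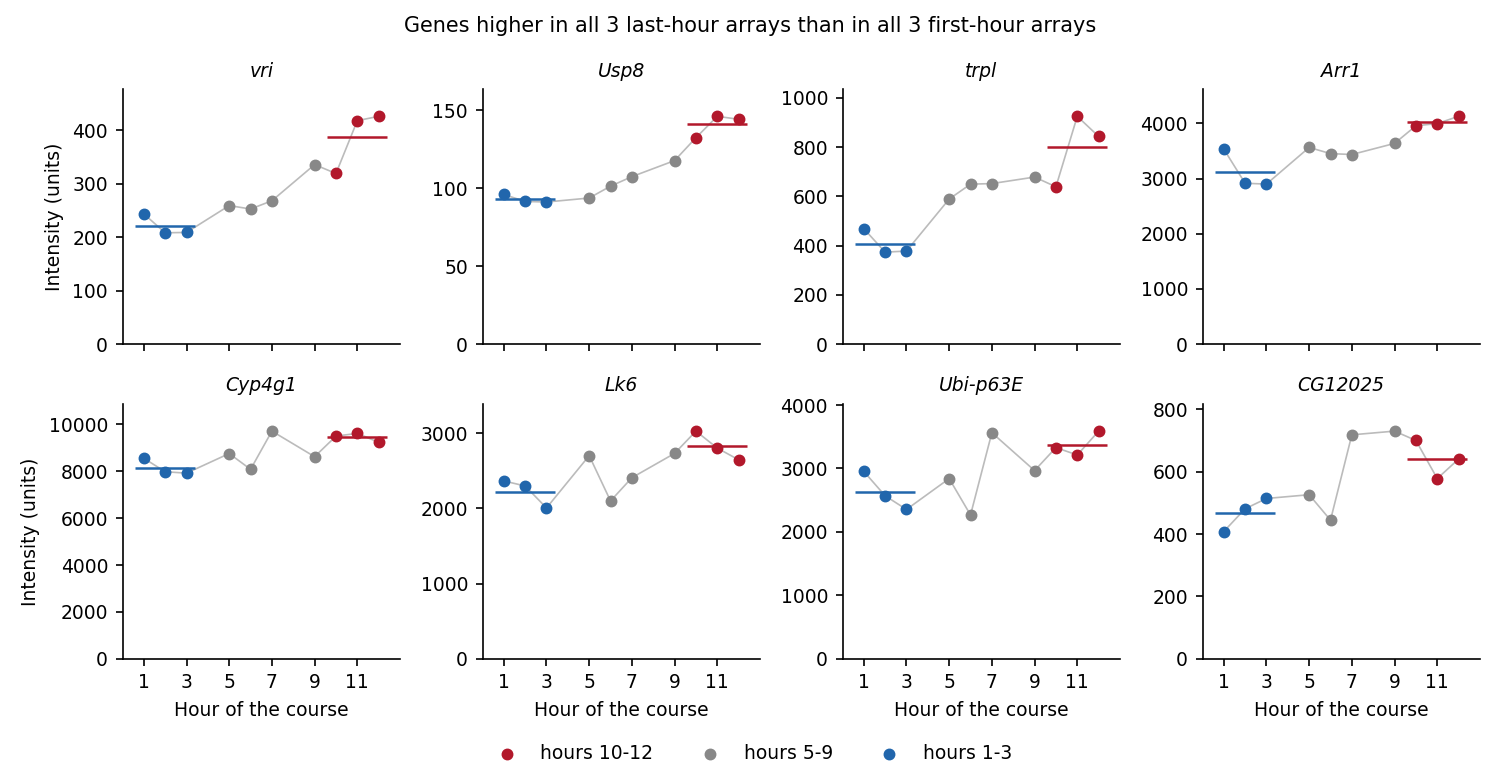
Intensity (y axes, units, from 0) by hour of the course (x axes) for vri, Usp8, trpl, Arr1, Cyp4g1, Lk6, Ubi-p63E and CG12025, with 1 point per array, red for hours 10 to 12, grey for hours 5 to 9 and blue for hours 1 to 3, and bars at the mean of each end. Usp8 climbs from hour 5 on, while Cyp4g1, Ubi-p63E and CG12025 are as high at hour 7 as in the last hours.

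A group of bright transcripts lay higher in the last hours by small amounts. Cyp4g1 encodes the oenocyte enzyme that makes the cuticular hydrocarbons which keep the fly from drying out. It had 9501, 9620 and 9237 units at hours 10, 11 and 12, against 8556, 7983 and 7921 at hours 1, 2 and 3, a difference of 0.21 ± 0.04 (limma, adjusted p = 0.867). Lk6, which encodes the kinase of the cap-binding factor eIF4E, had 3026, 2800 and 2645 units, against 2364, 2297 and 2005. Its difference was 0.35 ± 0.09, and a second, dimmer Lk6 probe set overlapped, at 0.64 ± 0.33. The polyubiquitin gene Ubi-p63E had 3329, 3213 and 3589 units, against 2954, 2570 and 2354, a difference of 0.37 ± 0.09. Ubi-p5E, a second polyubiquitin gene, gave 0.17 ± 0.05, and its probe set is of a kind shared by near-identical copies, so which copy was measured is uncertain. Cyp4g1, with 8084 and 9715 units, and Ubi-p63E, with 2267 and 3564, differed more between the arrays of hours 6 and 7 than between the means of the ends.

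Further genes higher in the last hours were dimmer. The carboxylesterase gene alpha-Est10 had 149.8, 146.7 and 148.8 units, against 125.3, 127.6 and 119.0, with both ends tight and a difference of 0.26 ± 0.07. CG15605 had 193.5, 216.2 and 192.7 units, against 155.7, 168.2 and 159.7, a difference of 0.32 ± 0.08. CG12025 had 700.1, 578.0 and 640.6 units, against 408.0, 481.1 and 514.1, a difference of 0.45 ± 0.13. For CG15605 and CG12025 no role is given here. Doa encodes a kinase of splicing factors, and it had 242.2, 286.4 and 260.5 units, against 237.4, 174.6 and 169.7. Hour 1 lay just under hour 10, and the difference was 0.45 ± 0.15. Sxl, the switch gene of female development, had 129.1, 126.1 and 168.4 units, against 126.0, 85.8 and 96.7, a difference of 0.46 ± 0.17 in which hours 1 and 11 nearly touched. A probe set with no gene name had a mean of 658.3 units in the last hours and 414.9 in the first hours, a difference of 0.67 ± 0.11 (limma, adjusted p = 0.684).

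CG17108 and CG7300 lie next to each other on chromosome arm 2L, with 0 protein-coding genes between them in the Release 6 gene table, and both were lower. CG17108 had 732.0, 1005 and 888.4 units at hours 10, 11 and 12, against 1800, 2425 and 1962 at hours 1, 2 and 3. The highest last-hour array lay far below the lowest first-hour array. The mean was 875.2 ± 137.2 units in the last hours and 2062 ± 324.4 in the first hours (SD, n = 3 each), a difference of -1.24 ± 0.16 (limma, adjusted p = 0.249). CG7300 had 200, 242.9 and 217.5 units, against 391.0, 416.0 and 326.8, a difference of -0.78 ± 0.13 (limma, adjusted p = 0.684). On the middle arrays both genes were high at hour 6, with 1800 and 345.1 units, and both were near their last-hour level at hour 9, with 773.0 and 203.3. No role is given here for either gene.

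The neuropeptide-like genes Nplp2 and Nplp3 and the clotting gene fon were lower in all 3 last-hour arrays. Nplp2 encodes a neuropeptide-like precursor, and it had 1338, 1345 and 1726 units at hours 10, 11 and 12, against 2153, 3047 and 2507 at hours 1, 2 and 3. The ends were separated and the difference was -0.80 ± 0.16. Nplp3, of the same class, had 651.9, 714.2 and 695.3 units, against 841.3, 1281 and 1134, a difference of -0.64 ± 0.16. The bursicon subunit gene Burs was also separated downward, at -0.21 ± 0.13, with its highest value at hour 3, and Nplp1 was separated upward at 0.13 ± 0.09. Of 18 neuropeptide precursors 3 were separated downward, 16.7% against 7.3% of all tested genes, and 1 upward, 5.56% against 2.05%, and the median was -0.07. The clotting gene fon, or fondue, had 200.5, 224.3 and 226.1 units, against 280.4, 312.3 and 316.3, a difference of -0.48 ± 0.10 with little spread at either end.

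Of the 5 tested storage and lipid carrier genes 3 were separated downward, 60% against 7.3% of all tested genes, and 0 differences were above 0. The gene apolpp, which encodes the main lipoprotein of the hemolymph, had 399.7, 499.6 and 424.4 units, against 605.6, 866.9 and 504.7, a difference of -0.55 ± 0.21, and its second probe set gave -0.59 ± 0.18. In both the ends did not overlap, though hours 11 and 3 nearly met on the brighter one. The lipid transfer particle gene Apoltp gave -0.23 ± 0.10 and Mtp, which loads lipid onto these particles, -0.15 ± 0.07. For this list median centring or quantile normalization left 2 separated, and the median of -0.20 became -0.15 with centring and -0.13 with quantile normalization. Acbp5, an acyl-CoA binding protein gene, had 153.4, 254.9 and 197.0 units, against 295.7, 413.2 and 505.5, a difference of -1.001 ± 0.24. Summed fat body markers, 5 genes in which apolpp and Apoltp are counted again, were 1149 to 1213 units in the last hours and 1376 to 1741 in the first hours, with 2 of the 5 separated downward and 1 upward. The 1 upward was Sdr, which was under the intensity floor. The part of fat body tissue in these values was not tested.

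The collagen IV genes of the basement membrane, made by fat body and blood cells, were both separated. Col4a1 had 400.5, 523.0 and 503.4 units, against 585.9, 674.5 and 645.5, a difference of -0.42 ± 0.13. Its partner vkg had 188.6, 217.1 and 221.8 units, against 246.2, 254.3 and 417.2, a difference of -0.51 ± 0.21 in which hour 3 was the highest array. The other 6 of 8 basement membrane genes lay between -0.22 and 0.13, with Pxn, a matrix peroxidase gene, at 0.13 ± 0.11. Summed hemocyte markers overlapped, with 884.3 to 957.2 units in the last hours and 888.8 to 975.6 in the first hours. Of the 6, 1 that was too dim to test was separated upward and 0 downward, and eater and NimC1 were under the floor. Among antimicrobial peptide genes, Drs was separated upward, with 3850, 4366 and 3986 units, against 3847, 3778 and 3784, a difference of 0.09 ± 0.06 that was no separation after quantile normalization. The diptericin gene DptB had 178.5, 183.3 and 178.1 units, against 181.2, 1041 and 270.1, so the ends overlapped, hour 2 was far above the rest, and the difference was -1.04 ± 0.58. Mtk gave -0.64 ± 0.30 and was also highest at hour 2, and 0 of 8 bomanin and transferrin genes and 0 of 5 peptidoglycan recognition genes were separated.

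The dimmer genes LManVI, CG8562, CG4752 and CG16762 were also among the smallest p-values. LManVI, a mannosidase gene of the lysosomal family, had 105.0, 85.3 and 86.0 units, against 165.4, 124.0 and 138.8, a difference of -0.63 ± 0.13. CG8562 had 259.8, 296.0 and 275.3 units, against 409.4, 390.8 and 378.6, a difference of -0.51 ± 0.10. CG4752 had 133.1, 126.4 and 127.1 units, against 166.2, 158.0 and 186.4, a difference of -0.40 ± 0.08 with middle arrays all between 144.1 and 146.1. CG16762 had 66.7, 81.1 and 116.1 units, against 185.1, 166.5 and 150.6, a difference of -0.96 ± 0.20. Ugt35B1, a UDP-glycosyltransferase gene of detoxification, had 164.7, 214.5 and 185.2 units, against 273.4, 250.6 and 362.1, a difference of -0.64 ± 0.16, while a second probe set overlapped at -0.31 ± 0.20. All 5 of these genes were separated as deposited.

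In digestion, 3 of 12 carbohydrate genes were separated downward, 25% against 7.3% of all tested genes. Besides LManVI these were the maltase genes Mal-A2, at -0.25 ± 0.09, and Mal-A3, at -0.21 ± 0.10, while Mal-A6 and Mal-B2 overlapped at 0.30 and 0.23, and the median was -0.01. Among 21 midgut proteases the trypsin gene kappaTry was separated, at -0.52 ± 0.22, with 174.1 units at hour 3. The others had differences between -0.55 for Jon99Fi and 0.26 for thetaTry, and the median was -0.10. Summed midgut markers overlapped widely, from 10040 to 11550 units in the last hours and from 9391 to 13080 in the first hours, with 1 of 6 separated downward.

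Genes of insulin signalling and metabolism were close together at both ends. The insulin receptor gene InR had 216.7, 200.5 and 219.3 units at hours 10, 11 and 12, against 217.1, 181.0 and 173.0 at hours 1, 2 and 3, a difference of 0.16 ± 0.11 with overlap. The kinase gene S6k, which acts below TOR, gave 0.27 ± 0.18 and the transcription factor gene foxo -0.19 ± 0.15. The receptor substrate gene chico was the 1 of 10 that was separated, at 0.09 ± 0.09, and the list median was 0.10. Pepck1, the enzyme that commits carbon to gluconeogenesis, gave -0.23 ± 0.14, and the triglyceride lipase gene bmm -0.03 ± 0.12, which turned to 0.02 with median centring.

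Fatty acid synthesis genes were mostly above 0, with 10 of 11, and had a median of 0.12. FASN1, the fatty acid synthase gene, had 275.8, 523.1 and 429.3 units, against 384.2, 232.4 and 230.0, a difference of 0.53 ± 0.29. The desaturase gene Desat1 had 303.0, 486.5 and 517.3 units, against 361.7, 269.8 and 276.3, a difference of 0.50 ± 0.23. In both genes hour 10 was below hour 1, so the ends overlapped. ATPCL, which supplies cytosolic acetyl-CoA, gave 0.23 ± 0.12. The list median was 0.04 without hour 11 and 0.24 without hour 10. The acyltransferase gene mdy, which makes triglyceride, was the 1 separated member and lay downward, with 103.5, 104.9 and 103.9 units, against 118.5, 115.2 and 118.7, a difference of -0.17 ± 0.06. In fat breakdown the thiolase gene yip2, at -0.29 ± 0.11, and the lipase gene Lip4, at -0.18 ± 0.07, were separated among 12 genes. Glycolysis had 0 of 10 separated genes and gluconeogenesis with trehalose 0 of 7.

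Most members of the mitochondrial lists were below 0 by small amounts, as deposited and after centring, and how many were separated depended on the scaling. Of 49 tested oxidative phosphorylation genes 10 were separated downward, 20.4% against 7.3% of all tested genes, and 0 upward. Their differences were below 0 in 41, 83.7% against 64.5%, with a median of -0.10 beside -0.04 over all tested genes. Centring left 3 separated downward and 39 below 0, with a median of -0.05 beside 0.0048 over all tested genes, of which 267 were then separated downward and 3305 below 0. Quantile normalization left 2 separated and a median of -0.03 beside 0.016, and without the array of hour 10 the median was -0.01. The complex I gene ND-B22 had 960.4, 1076 and 1060 units, against 1169, 1207 and 1166, a difference of -0.20 ± 0.09. A second complex I gene, ND-B12, gave -0.24 ± 0.11 and the ATP synthase gene ATPsyngamma -0.20 ± 0.09. Mitochondrial ribosomal proteins had 9 of 57 separated downward, 15.8%, and 0 upward, and 53 differences below 0, 93%, with a median of -0.09. Centring left 7 separated downward, 0 upward and 43 below 0, with a median of -0.05, and quantile normalization 3, 0 and 34, with a median of -0.03. The members mRpL40, at -0.17 ± 0.07, and mRpL10, at -0.16 ± 0.08, had narrow gaps. By contrast mRpS18C had 196.0, 192.1 and 176.0 units, against 204.3, 201.9 and 1363, with hour 3 far above the rest and a difference of -1.03 ± 0.69. Over the mitochondrial ribosomal list that array was the highest of all 10, at 0.21 on the log2 scale above each gene's mean.

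Lists of translation and of the proteasome had medians between -0.05 and 0.01. Cytosolic ribosomal proteins had 5 of 33 separated downward, 15.2%, and 1 upward, 3.03%, with a median of -0.02, among them RpL37A at -0.10 ± 0.04 and RpL39 at -0.12 ± 0.06. Centring left 1 in each direction. RpS19b, a paralog found in the germline, was the 1 upward, at 0.21 ± 0.15. In the translation factor list the helicase gene eIF4A had 4878, 4731 and 4777 units, against 4434, 4513 and 4088, a difference of 0.14 ± 0.05. The factor genes eIF2beta, at -0.29 ± 0.14, and eIF2Balpha, at -0.13 ± 0.07, lay the other way, and the median over 32 genes was 0.01. The chaperone gene Hsc70-4 had 4615, 4406 and 4731 units, against 4305, 4272 and 3715, a difference of 0.16 ± 0.07, while the small heat shock genes Hsp26 and Hsp27 overlapped at -0.46 ± 0.24 and -0.27 ± 0.14. Of 26 proteasome genes Prosalpha5 and Prosbeta4 were separated downward, at -0.20 ± 0.12 and -0.18 ± 0.11, with a median of -0.05, and 0 of 22 aminoacyl-tRNA synthetase genes were separated.

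Of 16 tested ribosome biogenesis genes 3 were separated downward, 18.8%, and of 6 replication and cell cycle genes 3, 50%, against 7.3% of all tested genes. In ribosome biogenesis these were mbm, at -0.44 ± 0.16, Nop56, at -0.22 ± 0.12, and Nnp-1, at -0.16 ± 0.07, and the count was 1 with either scaling. In replication PCNA, the sliding clamp gene, had 209.5, 231.3 and 199.9 units, against 243.5, 239.0 and 278.6, a difference of -0.25 ± 0.10. The helicase gene Mcm2 gave -0.16 ± 0.06 with 103 to 104 units in the last hours, and the ribonucleotide reductase gene RnrL -0.17 ± 0.07. The mitotic cyclin gene CycB overlapped at -0.27, and the list median over 6 genes was -0.17, or -0.12 with either scaling. These genes are known from dividing cells, which in the adult fly include those of the ovary. The part of ovary tissue in these values was not tested.

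Of 44 cytochrome P450 genes 4 were separated upward, 9.09% against 2.05% of all tested genes, and 2 downward, 4.55% against 7.3%, with a median of 0.01. Upward were Cyp4g1, Cyp4ac3, at 0.24 ± 0.08, Cyp6a2, a gene of insecticide metabolism, at 0.37, and Cyp6t3, at 0.14. Downward were Cyp9b2, at -0.45 ± 0.16, and Cyp6a19, at -0.42 ± 0.15, both highest at hour 3. Among 35 glutathione and UDP-glycosyl transferase genes 3 were separated downward, of which Ugt35B1 was by far the largest, and Ugt301D1 upward at 0.19 ± 0.09. Of 61 cuticle genes 11 were separated downward, 18% against 7.3% of all tested genes, and 2 upward, 3.28% against 2.05%, with a median of -0.08. Cpr49Ae had 131.8, 176.7 and 168.4 units, against 197.1, 347.7 and 224.0, a difference of -0.66 ± 0.22. Further examples were Cpr92F at -0.40 ± 0.12 and Acp65Aa at -0.34 ± 0.12, and the count was 5 downward and 3 upward with centring and 4 and 2 with quantile normalization. The odorant-binding protein gene Obp99c had 363.6, 463.0 and 461.1 units, against 501.5, 554.0 and 681.3, a difference of -0.43 ± 0.16, and Obp83b was separated at -0.15 ± 0.09, while Obp99b lay upward by 0.03, with 2 downward and 1 upward of 17.

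The remaining lists had few separated members. Of 18 muscle genes 2 were separated downward, 11.1% against 7.3% of all tested genes, and 0 upward. These were the myosin light chain genes Mlc1, at -0.21 ± 0.10, and Mlc2, at -0.07 ± 0.04. Their ends nearly touched, with at most 2992 units in the last hours and at least 2994 in the first for Mlc1. For Mlc2 these were 5370 and 5375. The count was 0 in each direction with centring and 1 in each with quantile normalization. Zasp52 overlapped at 0.40 ± 0.20 and on both of its other probe sets. Of 24 vacuolar proton pump genes 2 were separated downward, 8.33%, near the 7.3% of all tested genes, and 0 upward. These were VhaM9.7-a, at -0.18 ± 0.12, and Vha36-3, at -0.14 ± 0.09, while Vha55 overlapped at 0.45 ± 0.17. The downward count was 1 with centring and 0 with quantile normalization, where 1 was separated upward. In autophagy Atg16 was separated upward, at 0.17 ± 0.08, and Atg6 downward, at -0.19 ± 0.07. Ecdysone and juvenile hormone response genes and neuron genes had 0 separated, of 14 and 9. Summed neuron markers were 889.1 to 932.8 units in the last hours and 825.7 to 1020 in the first hours, and summed flight muscle markers were 7777 to 8479 units in the last hours and 8057 to 8893 in the first hours, with 0 of 4 neuron markers separated and 1 of 5 flight muscle markers separated downward.

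**Figure D5:**
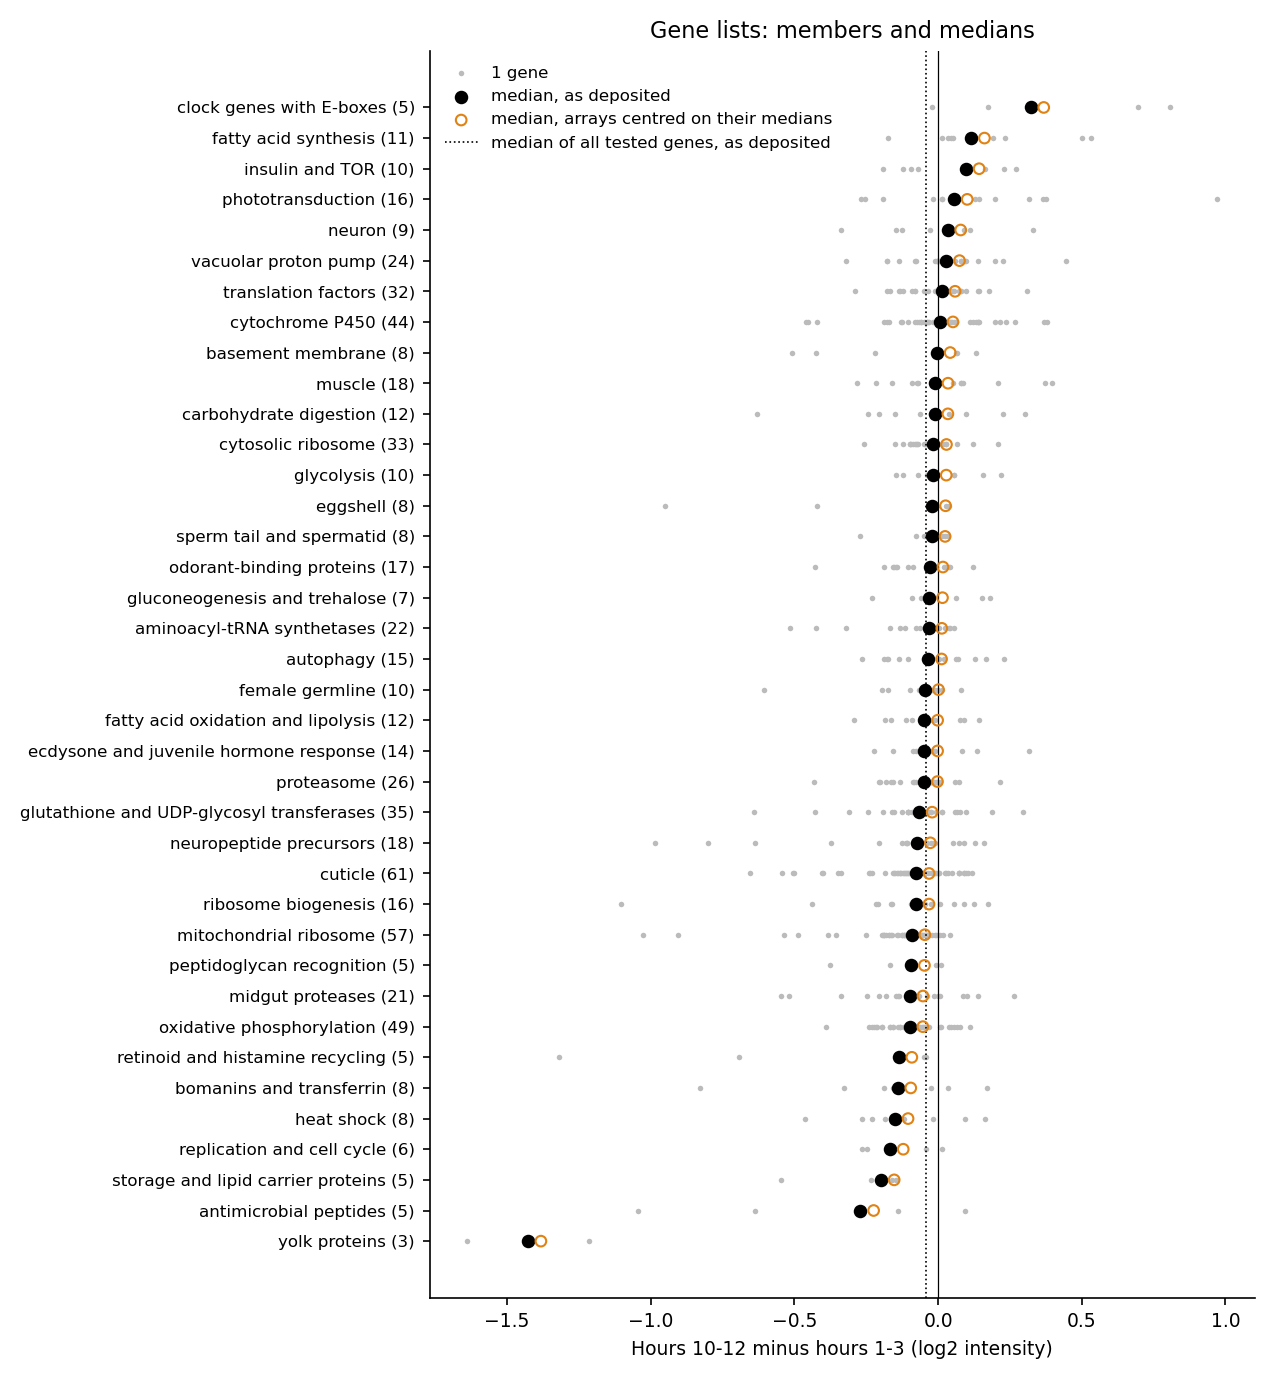
Log2 difference of the last hours minus the first hours (x axis) for the tested members of 37 gene lists with 5 or more of them and of the yolk proteins (rows, number tested in parentheses), with grey points for single genes, black points for the list median as deposited, open orange circles for the median after centring each array, and a dotted line at the median of all tested genes, -0.04. The E-box clock genes lie highest, with a median of 0.32, and the yolk proteins lowest, with -1.43.

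The 4 middle arrays were set beside both ends. Their mean lay between the end means for 442 of the 582 probe sets that were separated downward, 75.9%, for 132 of the 183 separated upward, 72.1%, and for 37.9% of all tested probe sets. Since an end mean and a separated set are read from the same 6 arrays, this is a description with no test. The middle mean lay between the end means and nearer to the last hours in 264 of the 582, 45.4%, and in 69 of the 183, 37.7%. Over all 8380 tested probe sets this held for 1905, 22.7%. Middle means beyond the last-hour mean are not counted. Of those with a middle mean between the ends, 264 of 442 and 69 of 132 were nearer to the last hours, beside 1905 of 3178 over all tested. Send1 and LManVI lay within their last-hour range on all 4 middle arrays, Pdh and Usp8 passed through the gap in steps, and Yp1, Nplp2 and fon had a high array at hour 6.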

How the data were processed

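Per the labels, whole-fly RNA was extracted with Trizol and hybridised at a core facility, and the authors normalized the arrays with dChip through probes of stable rank. The deposited values are linear intensities, judged by their range. Its version and model (with or without mismatch probes) are not given here. An intensity compares 1 probe set between arrays, and a change shared by most transcripts may have been reduced or removed by the scaling. The deposited values still held a small shift toward lower last-hour values, with 36.2% of the differences above 0. The number of arrays limits the precision. Of 14010 probe sets on 10 arrays 44 were controls. Platform annotation named 1 gene for 12443 of the other 13966, several for 327 and none for 1196. Symbols were updated by Entrez identifier to the Release 6 gene table for 12394. Coordinates are left out, since no build is named.

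A floor of 57.2 units, the 20th percentile, was set before log2. Testing covered the 8380 probe sets whose mean log2 reached the 40th percentile, by limma (lmFit and trended eBayes), adjusted by Benjamini-Hochberg at 0.05, two-sided, on 3 last-hour and 3 first-hour arrays. Differences understate the change of dim transcripts. The arrays of an end are separate hours, and nothing in the labels says how many flies each holds, so p-values measure only the spread between these arrays. Each gene in a list was read from its brightest probe set, and lists are given by counts and medians with no test.

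The comparison, the gene and marker lists and the rule for named genes were chosen with earlier results of these data known. The rule took the 10 smallest p-values and the 6 largest differences between separated ends in each direction, up to 3 members of each described list with the smallest p, and per, tim, vri, Pdp1, cwo, cry, Clk, Yp1, Yp2, Yp3, InR, bmm, Pepck1, FASN1 and Desat1. Lists were described by member where they held a separated gene, and these and other genes named to complete a count or a contrast were chosen after their values were seen. Of 44 lists 40 had at least 3 tested genes.

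The fit was tested on simulated data with 8380 probe sets, 200 of them changed. It recovered 34% at a log2 change of 0.5, 86.5% at 1 and 98.5% at 2, with 4.37% to 8.11% of calls outside the changed set. With fewer changed probe sets the adjustment is stricter. Alternatives were other scalings, floors, filters and variance models, 1 probe set per gene, the middle arrays as a group of their own, other hours at the ends, the actin ratio as a covariate and leaving out each array. R 4.3.3, limma 3.58.1, Python 3.11.15, pandas 2.3.3, scipy 1.17.1 and matplotlib 3.10.9 were used.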

Additional observations from a re-analysis of the deposited data

How the results depend on the processing

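The count of 0 passing probe sets stayed at 0 in 17 of 19 alternatives by limma, among them all 6 that left out an array, while 140 (without hour 12) to 705 (without hour 1) had an unadjusted p under 0.05. It was 1, Send1, with 10 arrays and a middle group (adjusted p = 0.00251) and 1, Send1 again, for hours 9 to 12 against 1 to 3 (adjusted p = 0.0239). Over all 19 alternatives Send1 had an adjusted p between 0.00251 and 0.681 and a difference between -0.996 and -0.702. Separated probe sets, 183 higher and 582 lower as deposited, numbered 458 and 279 with quantile normalization, 350 and 314 with median centring, 325 and 832 without the brightness filter, 1315 and 1561 for hours 11 and 12 against 1 and 2, and 109 and 384 for hours 9 to 12 against 1 to 3. Leaving out 1 array gave 318 to 852 higher and 785 to 1413 lower, where fewer arrays must be in order. Of 127 tested probe sets of named genes 122 kept their sign in every alternative. The others were near 0 or rested on single arrays. The cause was not tested. The lipase gene bmm, -0.0287 as deposited, was 0.0493 with quantile normalization, 0.0173 with median centring, 0.0084 with hour 9 added and -0.1164 to 0.0543 without single arrays, above 0 without hour 1 or 11. The gene per, -0.0203 as deposited, was 0.0388 with quantile normalization, 0.0257 with median centring and -0.1042 to 0.0508 without single arrays, above 0 without hour 3 or 11. For hours 11 and 12 against 1 and 2, Cp15 was -0.0031 and foxo 0.0102, and with hour 9 added Mtk was 0.0174. List medians moved by more than their spread in 28 of 758 values. No paired analysis was possible because each array is a different hour and the numbers of the arrays within an end pair none of them.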

Other observations

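Among the 16 probe sets at least 2-fold lower in the last hours, many owed their difference to 1 first-hour array, separated ones included. CG18536 had 366.1, 257.3 and 177.5 units at hours 10, 11 and 12, against 244.1, 242.1 and 3641 at hours 1, 2 and 3, and it was also high at hour 9, with 1334 units. The nucleolar gene ppan had 75.1, 74.5 and 70.2 units, against 83.8, 71.7 and 645.9, and CG13033 had 204.0, 184.3 and 167.2, against 179.2, 201.7 and 1436. Unlike these, CG13947 had raised values on several arrays, with 1162, 455.0 and 437.0 units in the last hours and 757.4, 2007 and 3404 in the first hours. In none of these 4 genes did the ends separate. Of the separated probe sets, mRpS18C rested on 1 first-hour array, with 204.3, 201.9 and 1363 units at hours 1, 2 and 3. So did a probe set with no gene name, with 611.4 units at hour 2, and another, with 586.0.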
